A study of Homo sapiens with 60 samples.

Results

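The 8 genes described here carry cystine import, transsulfuration, and the synthesis, use and breakdown of glutathione in human cells: SLC7A11, CBS, CTH, GCLC, GCLM, GSS, GPX4 and CHAC1. They were chosen by symbol, with earlier results of these data known, from the 57665 genes of the expression table. All 8 were present and passed the filter on low counts that left 18040 genes for testing. The eIF2 alpha kinase PERK was activated with a ligand at 0.01, 0.2 or 3 nM. At 0.2 and 3 nM, RNA of SLC7A11 (cystine import), CTH (the cysteine-yielding step of transsulfuration) and CHAC1 (glutathione breakdown) rose by more than 3 on the log2 scale. At 0.01 nM only CHAC1 did, while SLC7A11 and CTH rose by at most 2.37 and 2.09. RNA of CBS, the other transsulfuration enzyme, rose by at most 1.86. RNA of the glutathione-making enzymes GCLC, GCLM and GSS rose by at most 0.85 to 1.34, and RNA of the glutathione-using peroxidase GPX4 fell.

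Glutathione is a tripeptide of glutamate, cysteine and glycine that cells use to detoxify peroxides and reactive compounds, and cysteine is usually the amino acid in shortest supply for making it. Cysteine enters mainly as its oxidized dimer cystine, through a membrane exchanger whose transport subunit is SLC7A11, or is made from methionine by transsulfuration, in which CBS joins homocysteine and serine and CTH splits the product into cysteine. GCLC (the catalytic subunit) and GCLM (the modifier subunit) together make gamma-glutamylcysteine, GSS adds glycine, GPX4 spends glutathione to reduce lipid peroxides, and CHAC1 cleaves glutathione inside the cell. ATF4, the transcription factor made when eIF2 alpha is phosphorylated, is known to drive genes of amino acid supply, among them several of these.

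RNA was sequenced in bulk from U2OS Dmr-PERK cells, a human osteosarcoma line that stably expresses the kinase domain of mouse PERK joined to a DmrB domain, so that the ligand AP20187 (the dimerizer) brings the kinase together and switches it on. Libraries were made after 1, 2, 4, 8, 16 and 24 h with 0.01, 0.2 or 3 nM dimerizer (18 groups of 3 libraries), and there were 2 sets of 3 untreated libraries labelled 0 h, named here untreated set 1 and untreated set 2, which makes 60 libraries. The design text ranks these concentrations by how far protein synthesis drops, from little at 0.01 nM to most at 3 nM, where stress granules also form. Every group, the untreated sets included, carried the same fusion protein, no untreated culture was kept in parallel at each time, and the labels neither tie an untreated set to a dose nor say that replicates were separate cultures, so p-values measure the spread between these libraries, which may be technical.

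Estimated counts per library summed to between 5598803 and 10367667 for the low and middle doses and untreated set 1, whereas the 3 nM libraries and untreated set 2 held 20713981 to 28436445, so the step to the highest dose coincides with a step in depth. Mitochondrial genes took 8.38 to 9.54% of counts in untreated set 1 and 3.28 to 5.58% in all other libraries. Of 9 osteoblast lineage markers, 6 averaged over 1 TPM (a level corrected for transcript length and library size), and their summed level was 88.5 to 94.4 TPM at 3 nM after 24 h, against 408 to 531 TPM in untreated cells. COL1A1 made up most of that sum, with a mean of 370 TPM over the 60 libraries, against 18.2 TPM for the next highest, RUNX2. Of 5 epithelial markers 4 exceeded 1 TPM (654 to 659 TPM in sum at 3 nM after 24 h, against 749 to 981 TPM untreated), while none of 4 endothelial and none of 5 blood markers did. KRT18 and KRT8 made up most of the epithelial sum, with means of 690 and 219 TPM, against 3.80 TPM for EPCAM and 3.11 TPM for CDH1. In bulk RNA, fewer cells expressing a gene and less RNA per cell cannot be told apart.

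Promoter sequence was available for 6 of the 8 genes, and 3 stretches are printed because each holds, in capitals, a short motif known for the stress or antioxidant response. The sequences are from RefSeq, build GRCh38.p14, written 5′ to 3′ on the gene's strand. Capitals mark a C/EBP-ATF response element in CHAC1 (chr15:40953251-40953280, plus strand, inside a GENCODE exon), a cyclic AMP response element core in CTH (chr1:70411018-70411217, plus strand, upstream of its exons) and an antioxidant response element in GCLM (chr1:93909456-93909680, minus strand, with 1 base inside the annotated exon).
CHAC1: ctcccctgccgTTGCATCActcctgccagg
CTH: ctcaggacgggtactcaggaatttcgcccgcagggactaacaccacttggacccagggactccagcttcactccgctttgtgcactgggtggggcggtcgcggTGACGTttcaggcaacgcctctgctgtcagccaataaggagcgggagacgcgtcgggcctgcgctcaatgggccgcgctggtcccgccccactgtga
GCLM: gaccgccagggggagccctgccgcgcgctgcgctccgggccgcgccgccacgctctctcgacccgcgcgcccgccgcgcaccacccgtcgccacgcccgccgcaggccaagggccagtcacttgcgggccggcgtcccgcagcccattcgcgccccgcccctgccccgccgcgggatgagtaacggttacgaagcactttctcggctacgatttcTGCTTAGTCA
Motifs were searched on both strands in the bases before the transcription start. TGATGNAA, the C/EBP-ATF letters, occurred in 3.14% of 35116 promoters and in 1 of the 6, CHAC1, in reverse at -209 from the start. TGACGT occurred in 7.1% of promoters and in 2 of the 6, CTH at -147 and GPX4. The antioxidant response element motif occurred in 2.59% and in 1 of the 6, GCLM at -35 in reverse. CCAAT boxes, which do not overlap these motifs, occurred in 32.0% of promoters and in 5 of the 6. The percentages count each promoter once, whereas the 6 genes had 10 promoters between them and a gene counted with a match in any. The counts of genes are therefore not directly comparable with the percentages. The motifs were picked after the sequences had been looked at, and a match is a description, not a binding site.

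Against untreated cells (the mean of the 2 set means), edgeR's quasi-likelihood test at an adjusted p under 0.05 was applied to 48 gene and time combinations at each dose. At 0.01 nM the 8 genes were higher in 24 and lower in 10 of them, where 22.6% and 22.9% of all gene and time combinations were higher and lower. At 0.2 nM they were higher in 31 and lower in 8, with 28.5% and 27.4% in the background, and at 3 nM higher in 36 and lower in 8, with 34.2% and 30.3%. Increases of at least 2-fold stood further from the background: 14 at 0.01 nM (3.36% of all combinations), 21 at 0.2 nM (5.46%) and 24 at 3 nM (6.54%). Of these 59, CHAC1 gave 17, SLC7A11 14, CTH 13, CBS 10, GCLM 3 and GSS 2. No combination was lower by 2-fold at any dose, where 2.91%, 5.81% and 7.85% of all combinations were at 0.01, 0.2 and 3 nM. At 3 nM after 24 h the median log2 fold change of the 8 genes was 1.56, beside 0.05 for all genes tested. Because the genes were chosen with earlier results of these data known, these counts describe them and do not test for an excess over the background.

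**Figure D1:**
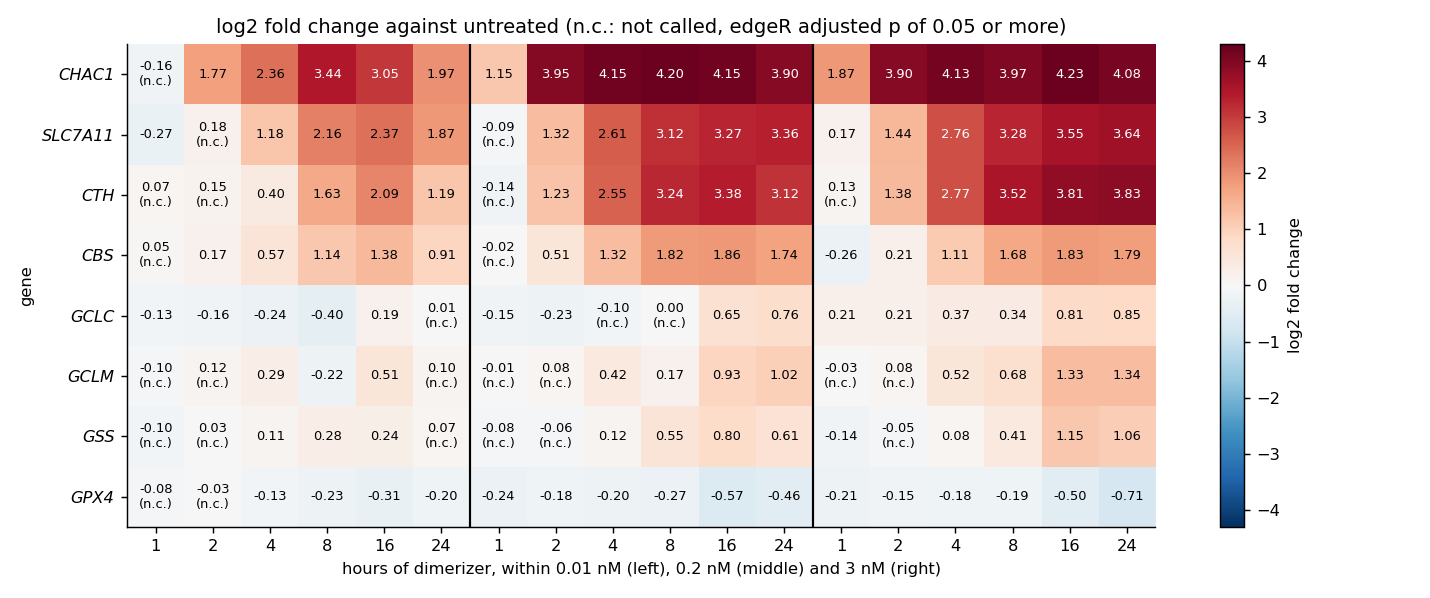
Log2 fold changes of the 8 genes (rows) against untreated cells at each dose and time (columns), from edgeR; n.c. marks values that did not pass an adjusted p of 0.05. CHAC1, SLC7A11 and CTH reach 4.08, 3.64 and 3.83 at 3 nM after 24 h, GCLC, GCLM and GSS lie between 0.85 and 1.34 there, and GPX4 is at -0.71.

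SLC7A11 (chr4:138164097-138242349, minus strand, GRCh38), the transport subunit of the cystine exchanger, was among the lowest of the 8 in untreated cells and rose at every dose. After 24 h it measured 13.7, 16.0 and 13.2 TPM at 0.01 nM, 41.4, 36.7 and 36.9 TPM at 0.2 nM, and 43.1, 42.4 and 44.7 TPM at 3 nM, against 2.78, 4.16 and 2.83 TPM in untreated set 1 and 4.14, 3.47 and 3.70 TPM in set 2. Treated and untreated libraries did not overlap at 24 h, and the low dose lay below both higher doses. The log2 fold changes at 24 h were 1.87 at 0.01 nM, 3.36 at 0.2 nM and 3.64 at 3 nM (SE 0.048, adjusted p = 2.8e-54 at 3 nM).

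The time course of SLC7A11 was slower at the low dose. After 2 h the gene measured 5.39, 3.81 and 3.74 TPM at 0.01 nM, which overlapped the untreated range, and 10.5, 8.78 and 8.28 TPM at 0.2 nM and 11.8, 10.4 and 8.80 TPM at 3 nM, which did not. Log2 fold changes after 2 h were 0.18 (adjusted p = 0.083) at 0.01 nM, 1.32 at 0.2 nM and 1.44 at 3 nM. At 0.01 nM the level was highest after 16 h, at 18.6, 18.2 and 18.1 TPM. After 1 h the calls were small, -0.27 at 0.01 nM and 0.17 at 3 nM, and each was lost when some single libraries were left out.

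CBS (chr21:43053191-43076943, minus strand), which opens transsulfuration, had a higher starting level and a smaller fold change. It measured 81.8, 90.8 and 89.4 TPM at 0.01 nM, 168, 151 and 147 TPM at 0.2 nM, and 147, 146 and 152 TPM at 3 nM after 24 h, against 43.3, 39.1 and 38.4 TPM in untreated set 1 and 40.5, 39.3 and 39.5 TPM in set 2. All treated libraries at 24 h exceeded all untreated ones, while the middle and high doses overlapped. Log2 fold changes were 0.91, 1.74 and 1.79 at 0.01, 0.2 and 3 nM (SE 0.032, adjusted p = 1.7e-47 at 3 nM). Its highest mean was at 0.2 nM after 8 h, with 180, 192 and 174 TPM, a range that overlapped that after 16 h at this dose.

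The annotation also holds CBSL, a near-identical copy of CBS on chromosome 21 (chr21:6444869-6468040), so that reads of the pair can be split by the quantification. CBSL took on average 3.01% of the CBS and CBSL level at 3 nM after 24 h and 0.963% and 2.92% in untreated sets 1 and 2. Summing both gave a log2 fold change of 1.81 at 3 nM after 24 h, beside 1.79 for CBS alone. After 1 h at 3 nM CBS was called lower on counts, by -0.26, but had 40.5, 43.1 and 39.5 TPM, within the untreated range, and log2(TPM + 1) gave 0.04.

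CTH (chr1:70411218-70439851, plus strand), which splits cystathionine to release cysteine, rose more than CBS and kept a gap between the middle and high doses. After 24 h it measured 17.4, 16.8 and 16.0 TPM at 0.01 nM, 63.9, 62.1 and 64.3 TPM at 0.2 nM, and 94.8, 97.5 and 97.3 TPM at 3 nM, against 5.88, 6.03 and 7.18 TPM in untreated set 1 and 6.38, 8.79 and 7.41 TPM in set 2. None of these groups overlapped, apart from the 2 untreated sets with each other. Log2 fold changes after 24 h were 1.19, 3.12 and 3.83 at 0.01, 0.2 and 3 nM (SE 0.058, adjusted p = 3.9e-51 at 3 nM).

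At the low dose CTH passed its highest level before the end of the course. It measured 30.4, 25.9 and 39.1 TPM after 16 h at 0.01 nM, the widest spread between replicates seen for this gene, against 17.4, 16.8 and 16.0 TPM after 24 h. The 2 times did not overlap. Its rise at 0.01 nM after 4 h (log2 fold change 0.40) was lost without replicate 3 of that group.

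**Figure D2:**
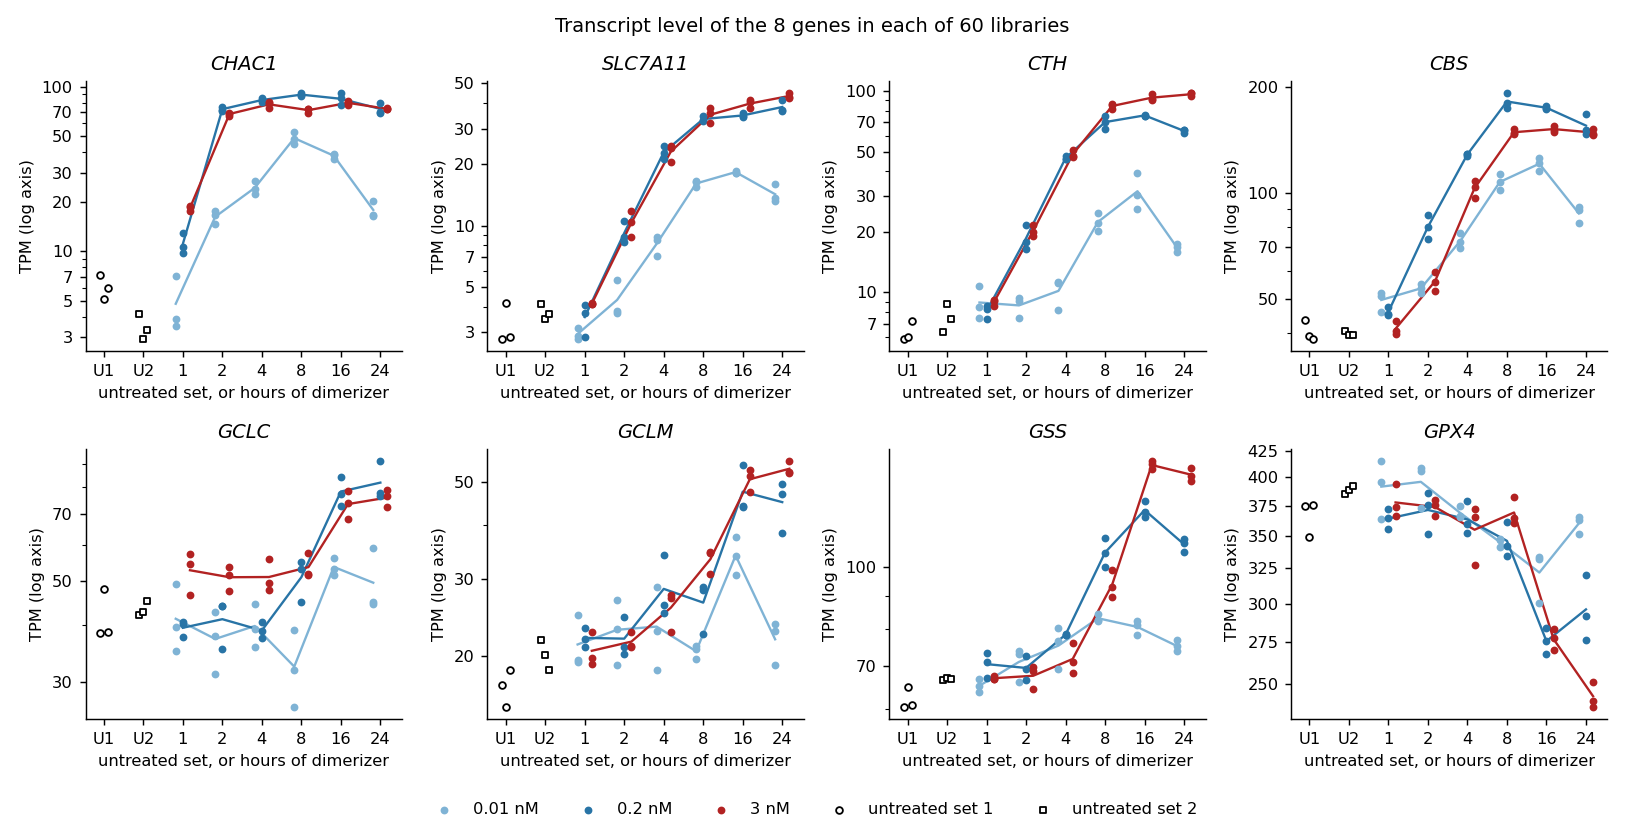
Level of each of the 8 genes in every library (points, TPM on a log axis) with group means as lines, for untreated sets 1 and 2 (U1, U2) and 1 to 24 h at 0.01, 0.2 and 3 nM. CHAC1 has reached 66.7 to 75.5 TPM after 2 h at 0.2 and 3 nM, and SLC7A11, CBS and CTH climb over 2 to 16 h. At 0.2 and 3 nM GCLC and GCLM climb most from 8 to 16 h, GSS climbs mostly between 4 and 16 h, and GPX4 declines late.

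GCLC (chr6:53497341-53616970, minus strand), which carries the catalytic site of glutamate-cysteine ligase, had its largest increases after 16 and 24 h at the 2 higher doses. It measured 45.0, 59.0 and 44.5 TPM at 0.01 nM, 77.8, 76.8 and 91.3 TPM at 0.2 nM, and 76.7, 78.9 and 72.6 TPM at 3 nM after 24 h, against 38.4, 47.8 and 38.6 TPM in untreated set 1 and 42.0, 42.8 and 45.1 TPM in set 2. The low dose overlapped untreated cells, and the other doses lay above them and overlapped each other. The 24 h log2 fold changes were 0.01 (adjusted p = 0.88) at 0.01 nM, 0.76 at 0.2 nM and 0.85 at 3 nM (SE 0.035, adjusted p = 7.6e-30).

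Before that rise GCLC was lower at the low dose. It measured 26.5, 39.0 and 31.9 TPM after 8 h at 0.01 nM, and the log2 fold change against untreated cells was -0.40 (SE 0.048, adjusted p = 2.3e-10). Replicate 2 of that group reached into the untreated range and the other libraries lay below it. At 0.2 nM after 2 h the log2 fold change of GCLC was -0.23, and -0.15 against untreated set 1 alone (edgeR adjusted p = 0.024). Its 35.5 to 44.1 TPM there overlapped the untreated range of 38.4 to 47.8 TPM. At 3 nM it was higher by 0.21 after 1 h and by 0.37 after 4 h. The largest step between adjacent times was that from 8 to 16 h at every dose, 0.60 at 0.01 nM, 0.65 at 0.2 nM and 0.48 at 3 nM, each called.

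GCLM (chr1:93885205-93909456, minus strand), the modifier subunit that raises the activity of GCLC, rose further than its partner. After 24 h it measured 22.9, 19.1 and 23.7 TPM at 0.01 nM, 47.1, 38.4 and 49.6 TPM at 0.2 nM, and 55.9, 52.7 and 52.6 TPM at 3 nM, against 17.2, 15.3 and 18.6 TPM in untreated set 1 and 21.7, 20.1 and 18.6 TPM in set 2. The low dose overlapped untreated cells, while every library at 3 nM exceeded every library at 0.2 nM. On the log2 scale the fold changes at 24 h were 0.10 (adjusted p = 0.24), 1.02 and 1.34 at 0.01, 0.2 and 3 nM (SE 0.052, adjusted p = 2.6e-31 at 3 nM).

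The course of GCLM at 0.01 nM was not steady. Its log2 fold change was 0.29 after 4 h, -0.22 after 8 h and 0.51 after 16 h, all called, but the value at 8 h became 0.14 on log2(TPM + 1), and its call was lost without replicate 3 of that group. From 8 to 16 h it rose by 0.72 at 0.01 nM, 0.76 at 0.2 nM and 0.65 at 3 nM.

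GSS (chr20:34928433-34956027, minus strand), glutathione synthetase, adds glycine in the last step. After 16 h it measured 81.3, 78.2 and 82.4 TPM at 0.01 nM, 127, 122 and 120 TPM at 0.2 nM, and 142, 145 and 147 TPM at 3 nM, against 60.4, 65.0 and 60.8 TPM in untreated set 1 and 66.5, 67.1 and 66.9 TPM in set 2. The 3 doses and the untreated libraries formed separate ranges at this time. Log2 fold changes after 16 h were 0.24, 0.80 and 1.15 at 0.01, 0.2 and 3 nM (SE 0.031, adjusted p = 1.2e-38 at 3 nM), and at 24 h they were 0.07 (adjusted p = 0.11), 0.61 and 1.06.

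GPX4 (chr19:1103926-1106791, plus strand), the selenium-containing peroxidase that reduces lipid peroxides with glutathione, had the highest level of the 8 and was the 1 member that fell at late times. After 24 h it measured 352, 365 and 363 TPM at 0.01 nM, 276, 320 and 291 TPM at 0.2 nM, and 237, 251 and 241 TPM at 3 nM, against 375, 349 and 375 TPM in untreated set 1 and 385, 388 and 392 TPM in set 2. The low dose overlapped untreated set 1, and both higher doses lay below all untreated libraries. Its fold changes at 24 h, as log2, were -0.20, -0.46 and -0.71 at 0.01, 0.2 and 3 nM (SE 0.038, adjusted p = 1.1e-24 at 3 nM).

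Early values of GPX4 were of the size of the difference between the untreated sets. Set 2 minus set 1 was -0.18 on counts (adjusted p = 0.0017) and 0.09 on log2(TPM + 1). The call after 1 h at 3 nM, -0.21 on counts, was 0.0014 on log2(TPM + 1). The late fall was seen within the doses as well, without use of untreated libraries: 24 h minus 4 h was -0.07 (adjusted p = 0.26) at 0.01 nM, -0.26 at 0.2 nM and -0.53 at 3 nM (adjusted p = 4e-17). The summed osteoblast markers, mostly COL1A1, were also lower at 3 nM after 24 h, and their part in the fall of GPX4 was not tested.

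CHAC1 (chr15:40952962-40956519, plus strand), a gamma-glutamylcyclotransferase that degrades glutathione, was the fastest of the 8. After 2 h it measured 14.6, 16.5 and 17.5 TPM at 0.01 nM, 71.3, 72.5 and 75.5 TPM at 0.2 nM, and 69.7, 68.6 and 66.7 TPM at 3 nM, against 7.19, 5.13 and 5.97 TPM in untreated set 1 and 4.15, 2.92 and 3.31 TPM in set 2. Every treated library at 2 h exceeded every untreated one, and the values at 0.2 nM lay above those at 3 nM. Log2 fold changes after 2 h were 1.77, 3.95 and 3.90 at 0.01, 0.2 and 3 nM (SE 0.063, adjusted p = 2.7e-48 at 3 nM).

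Already after 1 h CHAC1 was ordered by dose. It measured 3.49, 7.04 and 3.84 TPM at 0.01 nM, 12.9, 10.6 and 9.72 TPM at 0.2 nM, and 18.5, 18.9 and 17.5 TPM at 3 nM. The low dose overlapped the untreated libraries and the higher doses did not. Against the mean of the untreated sets it was the only member higher by at least 2-fold after 1 h at 0.2 nM (log2 fold change 1.15) and at 3 nM (1.87), where 1.85% and 1.26% of all genes were. Against the untreated set of like depth alone it was 0.74 at 0.2 nM (set 1), under 2-fold, and 2.28 at 3 nM (set 2). At 0.01 nM it was -0.58 against set 1 (edgeR adjusted p = 0.022), beside -0.16 against the mean of both sets.

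Later CHAC1 declined at the low dose. At 0.01 nM it measured 53.5, 44.6 and 48.1 TPM after 8 h and 16.7, 20.3 and 16.4 TPM after 24 h, while at 3 nM it measured 73.4, 69.3 and 73.6 TPM after 8 h and 73.2, 74.1 and 72.8 TPM after 24 h. The low dose at 24 h still lay above all untreated libraries, with a log2 fold change of 1.97, against 3.90 at 0.2 nM and 4.08 at 3 nM. Untreated set 2 was lower than set 1 by 0.83 on the log2 scale (log2 difference -0.83, adjusted p = 2.4e-05), so fold changes of CHAC1 depend on the set: after 24 h they were 4.50 at 3 nM against set 2 and 3.49 at 0.2 nM against set 1, the sets of like depth.

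The genes differed in how much of their change was present after 2 h. CHAC1 stood at 51.5%, 93.9% and 92.1% of its largest log2 fold change by then at 0.01, 0.2 and 3 nM. SLC7A11 stood at 7.56%, 39.4% and 39.7%, and CTH at 7.40%, 36.5% and 36.0%. For GSS no difference was called on counts after 2 h, with log2 fold changes of 0.03, -0.06 and -0.05 at 0.01, 0.2 and 3 nM.

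From 0.01 to 0.2 nM the 8 genes were higher at the higher dose in 30 of 48 combinations of gene and time and lower in 3, beside 14.8% and 13.1% of all combinations, and higher by at least 2-fold in 13, beside 1.47%. CTH differed most after 4 h, with 47.4, 46.1 and 46.2 TPM at 0.2 nM against 11.2, 8.20 and 11.1 TPM at 0.01 nM (log2 difference 2.15, SE 0.10, adjusted p = 7.7e-25). CHAC1 differed most after 2 h, by 2.18, and SLC7A11 after 24 h, by 1.49. GCLC, GCLM and GSS were called only from 8 h on, and GPX4 was lower at the higher dose by 0.26 or more after 16 and 24 h. GPX4 after 2 h (-0.15) lost its call when some single libraries were left out.

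From 0.2 to 3 nM they were higher in 21 of 48 and lower in 7, beside 23.2% and 16.9% of all combinations, and none reached 2-fold, beside 1.1%. CTH rose further after 24 h (log2 difference 0.72, SE 0.053, adjusted p = 1.2e-17), and so did GSS (0.45) and GCLM (0.32), while GPX4 was lower (-0.25). CBS was lower at 3 nM from 1 to 8 h, by -0.30 after 2 h, with 59.6, 52.7 and 55.7 TPM against 73.7, 80.0 and 86.1 TPM at 0.2 nM. GSS was lower at 3 nM after 8 h, by -0.13. GCLC was higher at 3 nM by 0.33 to 0.47 from 1 to 8 h, with 47.8, 49.4 and 55.7 TPM after 4 h against 38.8, 40.5 and 37.4 TPM at 0.2 nM, but on log2(TPM + 1) the value after 8 h was 0.08 and neither 2 nor 8 h was called. After 1 h CHAC1 was higher at 3 nM by 0.71. It differed by -0.05 after 2 h (adjusted p = 0.53, 95% interval -0.15 to 0.06), by -0.23 after 8 h and by 0.18 after 24 h, the last 2 called. SLC7A11 was higher by 0.29 after 16 and 24 h, and its calls after 1, 4 and 8 h were lost when some single libraries were left out.

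The step from 0.2 to 3 nM runs along the difference in depth, and the 2 cannot be told apart from these libraries alone. In an alternative chosen after library totals were seen, each dose was taken relative to the untreated set of like depth. CTH then differed by 0.43 after 16 h and 0.72 after 24 h, GSS by 0.46 and 0.56, and CBS by 0.21 and 0.28, all called, and no CBS difference up to 8 h was called. For CHAC1 the difference became 0.79 after 2 h and 1.01 after 24 h, since the 2 untreated sets differ in it. GCLM differed by 0.39 and 0.28 after 8 and 16 h, both called, and by 0.20 after 24 h (adjusted p = 0.089), not called. GCLC kept called differences of 0.19 to 0.32 from 1 to 8 h, and that after 16 h was 0.02, not called. No SLC7A11 difference was called, and GPX4 was higher by 0.20 to 0.26 from 1 to 16 h and differed by -0.07 after 24 h, not called.

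**Figure D3:**
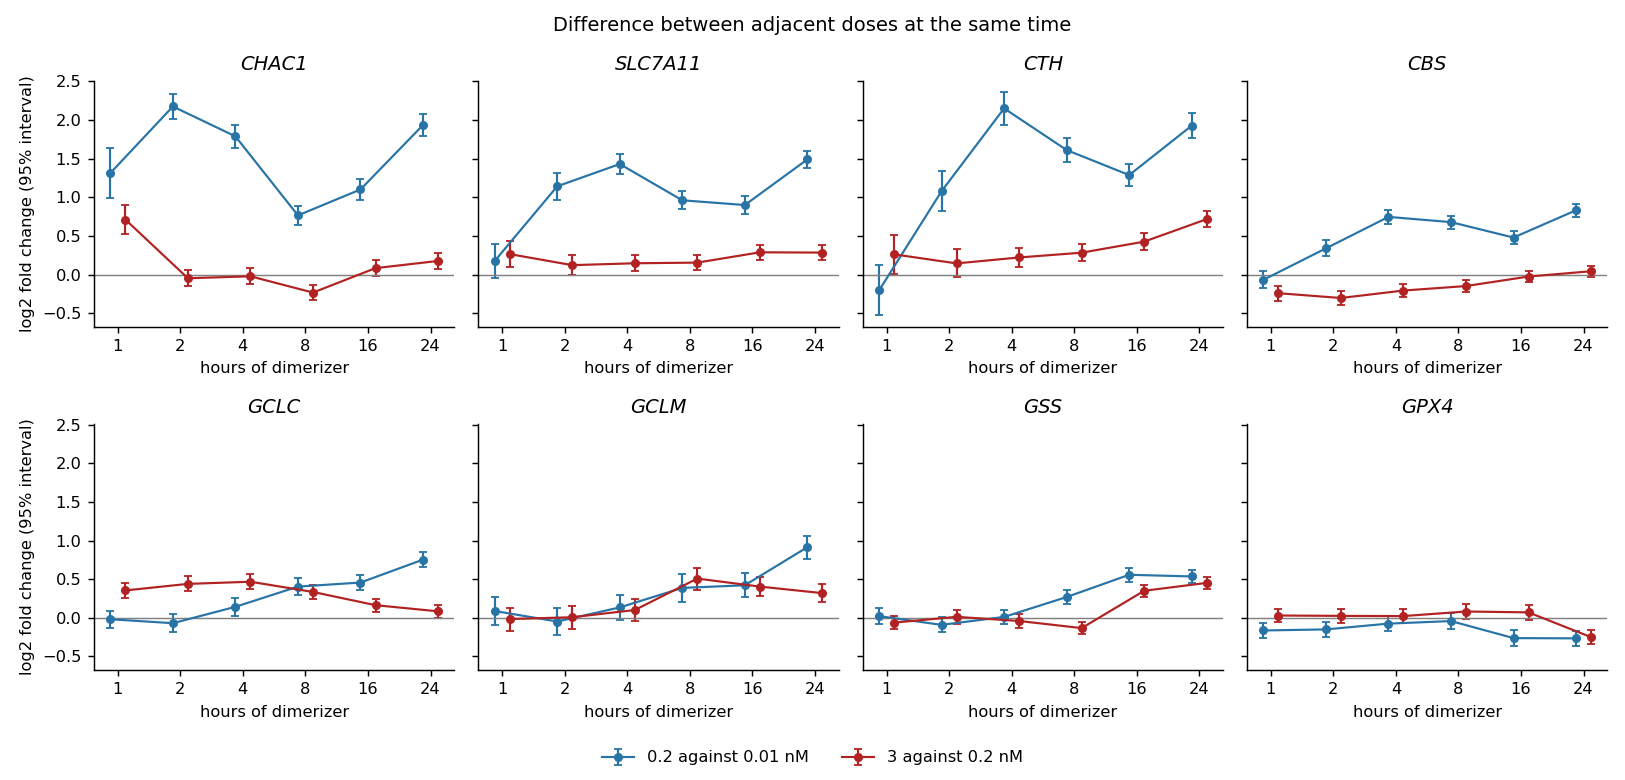
Log2 difference between adjacent doses for each gene at each time, 0.2 nM against 0.01 nM and 3 nM against 0.2 nM, with 95% intervals from edgeR. The lower step reaches 2.18 for CHAC1 and 2.15 for CTH, whereas the upper step stays under 1 for every gene.

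Between 16 and 24 h the low dose lost ground. At 0.01 nM 7 of the 8 genes were lower after 24 h than after 16 h and none higher, beside 13.2% and 10.4% of all genes. The log2 differences were -1.08 for CHAC1, -0.90 for CTH, -0.50 for SLC7A11, -0.47 for CBS, -0.40 for GCLM, -0.18 for GCLC and -0.16 for GSS. The call for GCLC was lost without replicate 1 of the 16 h group, and GPX4 differed by 0.11 (adjusted p = 0.098). At 0.2 nM 4 were lower and none higher (beside 6.05% and 4.16%), by -0.27 for CTH, -0.24 for CHAC1, -0.19 for GSS and -0.11 for CBS, and at 3 nM 2 were lower and none higher (beside 11.5% and 9.62%), by -0.21 for GPX4 and -0.15 for CHAC1. Over all 5 steps between adjacent times, members were higher in 16 of 40 and lower in 10 at 0.01 nM (14.5% each way in the background), in 18 and 6 at 0.2 nM (14.4% and 13.6%), and in 24 and 4 at 3 nM (21% and 19.2%).

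The change from 4 to 24 h was compared between doses with an interaction term, which needs no untreated library. Between 0.2 and 0.01 nM it differed for 4 of the 8 genes, 3 higher and 1 lower (15.2% and 16% of all genes): GCLM by 0.78 (SE 0.11, adjusted p = 6.5e-08), GCLC by 0.61, GSS by 0.52 and GPX4 by -0.19. Between 3 and 0.2 nM it differed for 6, 4 higher and 2 lower (19.5% and 16.7%), CTH by 0.50 and GSS by 0.49 among them. For SLC7A11 the difference was 0.06 (adjusted p = 0.66) between 0.2 and 0.01 nM and 0.14 (adjusted p = 0.11) between 3 and 0.2 nM.

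Ratios of TPM within a library, which are relative levels of RNA and not of protein, shifted with these changes. CTH over CBS was 0.652 ± 0.014 at 3 nM after 24 h, against 0.159 ± 0.026 in untreated set 1 and 0.190 ± 0.033 in set 2 (SD, n = 3 each). GCLM over GCLC was 0.707 ± 0.034 at 3 nM after 24 h, against 0.416 ± 0.085 and 0.466 ± 0.053 in untreated sets 1 and 2. SLC7A11 over GPX4 was 0.179 ± 0.0090, against 0.00897 ± 0.0026 and 0.00971 ± 0.00093. CHAC1 over GCLC was highest at 0.2 nM after 4 h, at 2.14 ± 0.076, against 0.150 ± 0.040 and 0.0801 ± 0.016 in untreated sets 1 and 2. At the doses and times given so far, all 4 ratios lay above their untreated values by more than the spread between replicates. GCLM over GCLC did not climb steadily: at 0.2 nM it was 0.731 ± 0.098 after 4 h and 0.550 ± 0.053 after 24 h. The latter range overlapped that of untreated set 2.

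When the 20 groups were ordered by mean TPM, neighbouring groups were mostly not resolved, except for CBS and SLC7A11. Of 19 neighbouring pairs, the gap exceeded the larger SD in 12 for CBS, 10 for SLC7A11, 9 each for CHAC1, CTH and GSS, 3 for GPX4, 2 for GCLM and 1 for GCLC. The highest means were 43.4 TPM for SLC7A11 and 96.6 TPM for CTH (3 nM, 24 h), 182 TPM for CBS and 89.6 TPM for CHAC1 (0.2 nM, 8 h), and 145 TPM for GSS (3 nM, 16 h). For GCLC the 1 resolved gap divided the 4 groups at 0.2 and 3 nM after 16 and 24 h, 73.6 to 82.0 TPM on average, from all others.

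Across the 20 group means of log2 CPM, which share untreated libraries and depth classes, SLC7A11 and CTH had a Pearson r of 0.98, SLC7A11 and CBS 0.97, and GCLC and GCLM 0.90. CHAC1 and GCLC had 0.45, and GPX4 ran against the others, at -0.84 with GSS. Of 11338 genes whose group means spanned at least 1 on the log2 scale, the 3 with the highest r to each member were named. For CHAC1 they were ATF4 itself (0.963), DDIT4 (0.954) and ADM2 (0.947). For SLC7A11 they were MTHFD2, of mitochondrial folate metabolism, and the aminoacyl-tRNA synthetases YARS and GARS, at 0.989 to 0.992. CBS had the amino acid transporter SLC1A5 (0.990), MARS and ALDH1L2, and CTH had RAB39B (0.989), GARS and ROCK1P1. The nearest genes were IL31RA (0.949) for GCLC, SH3BGRL2 (0.965) for GCLM and PDCD2 (0.982) for GSS.

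The rest of the pathway was followed in 10 lists with 85 tested genes. At 3 nM after 24 h 38 of the 85 were higher and 34 lower, beside 41.1% and 36% of all genes, 17 higher and 13 lower by at least 2-fold, beside 10.5% and 16.4%, and their median log2 fold change was 0.03, beside 0.05 for all genes tested. Over the lists as a whole the counts of genes higher or lower at any size were near the background, while single lists differed in their counts. The same shares of all genes stand beside each list's counts at 3 nM after 24 h given below. Those lists are small, and their counts were not tested against the shares.

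Among transport partners 4 of 6 tested genes were higher and 1 lower at 3 nM after 24 h. SLC3A2, the heavy chain that pairs with SLC7A11, had 416 TPM at 3 nM after 24 h, against 134 and 141 TPM in untreated sets 1 and 2, and peaked after 4 h at a log2 fold change of 1.75. SLC1A5 rose by 2.27 (3 nM, 16 h) and SLC1A4 by 2.17 (0.2 nM, 8 h), both carriers of neutral amino acids. SLC1A1, which carries glutamate and cysteine, was lower by 2-fold or more (log2 fold change -2.08 at 0.2 nM, 8 h) at a low level, 0.773 TPM at 3 nM after 24 h against 1.70 and 1.49 TPM untreated.

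The methionine cycle feeds transsulfuration, and other enzymes break cysteine down. Of the methionine cycle 5 of 8 tested genes were higher and 2 lower at 3 nM after 24 h, with MTRR, which reactivates methionine synthase, at 1.44 after 16 h. Of cysteine breakdown and sulfide oxidation 1 of 9 was higher and 5 lower. SQOR, the mitochondrial sulfide oxidase, was at -2.34 (SE 0.29) and the sulfite oxidase SUOX at -1.61 (SE 0.12) after 24 h at 3 nM. The cysteine dioxygenase CDO1 was higher after 4 h, at 1.53 (SE 0.15), and not called after 24 h (-0.26, adjusted p = 0.20).

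Of glutathione breakdown and the gamma-glutamyl cycle 5 of 8 were higher and 2 lower at 3 nM after 24 h. CHAC2, the slower relative of CHAC1, was at 1.33, GGCT, which cleaves gamma-glutamyl amino acids, at 1.08 and the aminopeptidase LAP3 at 1.01 (both 3 nM, 16 h), and GGT5 at -1.32. Among the other peroxidases and the reductase 1 of 6 was higher and 3 lower. GSR, which regenerates glutathione, was at 0.99 and the secreted peroxidase GPX3 at -1.92 after 24 h at 3 nM. GPX7 was at -1.06 (SE 0.25) at 0.2 nM after 24 h. GPX2 was called higher at 0.01 nM after 1 h (2.12), at a low level (0.442 and 1.38 TPM in untreated sets 1 and 2).

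Glutathione transferases, which attach glutathione to reactive compounds, mostly fell. At 3 nM after 24 h 10 of 14 tested were lower and 3 higher, beside 36% and 41.1% of all genes. By at least 2-fold 6 were lower and 1 higher, beside 16.4% and 10.5% of all genes, and the list's median was -0.73. MGST3 had 40.7 TPM at 3 nM after 24 h, against 161 and 175 TPM in untreated sets 1 and 2 (log2 fold change -2.12, SE 0.047, adjusted p = 4.4e-43). GSTM4 was at -2.08, MGST2 at -1.73 and GSTK1 at -1.43. The GSTM genes are close paralogs, so that quantification can split their reads. The summed osteoblast markers, mostly COL1A1, were lower alongside at this dose and time, as given above, and their part in this result was not tested.

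Of the thioredoxin and glutaredoxin genes 4 of 11 were higher and 5 lower at 3 nM after 24 h, beside 41.1% and 36% of all genes. At 3 nM GLRX2 was at 2.19 after 16 h and TXNRD1, thioredoxin reductase, at 1.70 after 24 h, and GLRX was at -1.47 (0.01 nM, 16 h). Of the exporters and carriers of glutathione and its conjugates 3 of 6 were higher and 3 lower at 3 nM after 24 h, ABCC4 at 1.07 (3 nM, 16 h) and ABCC3 at -1.28 among them. Of 12 genes of lipid peroxidation control and selenoprotein supply, next to GPX4, 8 were higher and 2 lower: the mitochondrial pyrimidine enzyme DHODH at 1.50, the selenocysteine lyase SCLY at 1.25 (both 3 nM, 16 h), SEPSECS, which makes selenocysteinyl-tRNA, at 1.26 (8 h) and GCH1, which opens tetrahydrobiopterin synthesis, at 1.23 (24 h).

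Among 5 regulators 4 were higher and 1 lower at 3 nM after 24 h. ATF4 had 810 TPM at 3 nM after 24 h, against 357 and 334 TPM in untreated sets 1 and 2, and was highest after 16 h, at a log2 fold change of 1.24. NFE2L2, the activator of antioxidant genes, was at 1.09 (3 nM, 4 h), DDIT3 at 2.16 (3 nM, 2 h), and BACH1, a repressor of antioxidant genes, at -1.03 (0.01 nM, 16 h).

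**Figure D4:**
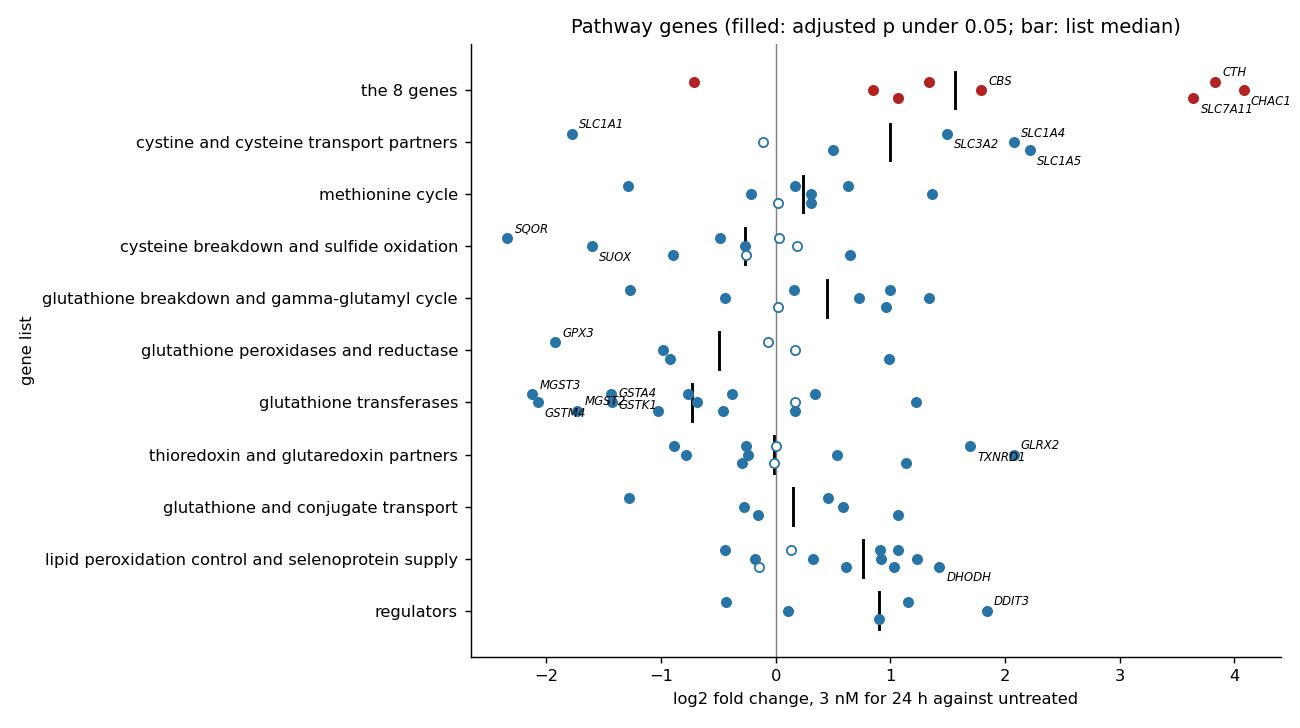
Log2 fold changes at 3 nM after 24 h against untreated cells for the 8 genes and for the tested genes of 10 pathway lists; filled points passed an adjusted p of 0.05 and bars mark list medians. The 8 genes span -0.71 to 4.08, and the transferases lie lowest with a median of -0.73.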

How the data were processed

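RNA-seq libraries from total RNA of 60 samples were made with a strand-specific kit, per the labels' protocols. The deposited files hold estimated counts per gene and TPM per gene; Salmon 0.9.1, FastQC 0.11.5 and the build GRCh38 were named, per the submitters' processing notes. The annotation, the strand setting and how transcripts were summed to genes were not stated there or in the labels (not given in the sources used here). The estimated counts that the authors deposited are whole in 77.81% of cells (tolerance 1e-06); the rest were rounded for the count tests.

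Counts were scaled by TMM, filtered with filterByExpr (18040 of 57665 genes kept) and fitted over all 20 groups with edgeR's quasi-likelihood test (R 4.3.3, edgeR 4.0.16). The control was the mean of the 2 untreated set means, and p-values were adjusted by Benjamini-Hochberg over all genes in each of 51 contrasts. Called means an adjusted p under 0.05. Fold changes and interaction terms come from this fit, and levels are the deposited TPM. Sample groups and replicate numbers come from the sample titles, where the middle dose is 0.195 nM, written here as 0.2 nM after the series' design text. With 3 libraries a group, precision rests on their number and on totals of 5598803 to 28436445 estimated counts.

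Alternatives were DESeq2 1.42.0, upper-quartile scaling, no filter, limma 3.58.1 on log2(TPM + 1) and log2(TPM + 0.1), a replicate block, each untreated set alone, and leaving out each library. A further one, the untreated set of like depth, was added after library totals were seen. The fit was tested on simulated counts. No libraries of a group agreed within sampling noise (chi-square per degree of freedom 1.378 to 19.16 over 60 pairs). Named genes were the 8 by symbol, at most 4 per pathway list with the largest change of at least 2-fold in any condition, CHAC2, SLC3A2, GSR, ATF4 and NFE2L2, and the 3 genes of highest correlation. The values of 1 gene that this rule names are not reported here. The members and lists were chosen with earlier results of these data known. Gene positions are from GENCODE 29, which held 57068 of the 57665 identifiers (99.0%).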

Additional observations from a re-analysis of the deposited data

Results flagged for a closer look

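The effect of a step in dose after 24 h differed from its effect after 4 h for 10 gene and dose pairs, by the interaction term in edgeR (adjusted p under 0.05). None of these differences reached 1 on the log2 scale, the minimum planned for this list. Of all genes, 15.2% were called higher and 16% lower for 0.2 against 0.01 nM, and 19.5% and 16.7% for 3 against 0.2 nM. For 0.2 nM against 0.01 nM the difference of log2 fold changes was 0.78 for GCLM, 0.61 for GCLC, 0.52 for GSS and -0.19 for GPX4. For 3 nM against 0.2 nM it was 0.50 for CTH, 0.49 for GSS, 0.25 for CBS, 0.20 for CHAC1, -0.38 for GCLC and -0.27 for GPX4. The calls of GPX4 at -0.19 and CHAC1 at 0.20 were each lost in 7 of the fits that left out 1 library. Libraries at 3 nM were deeper than those at 0.2 nM at both times, and the part of depth in these differences was not tested.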

How the results depend on the processing

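Of 6165 single-gene values recomputed under the alternatives, 5684 stayed called or stayed uncalled, 335 lost the call and 109 gained one. A further 37 changed sign with a call in either fit, and none of these was larger than 0.26 on the log2 scale. Sign changes without a call in either fit were counted among the 5684 and are not listed. The largest called value lost by leaving out a library was 0.40 (CTH, 0.01 nM, 4 h). On log2(TPM + 1) and log2(TPM + 0.1) the median of all genes moved by up to 0.19 and 0.23, and by -0.13 with upper-quartile scaling, so small changes are relative to that. The cause of the following moves was not tested. Untreated libraries held as few as 32 estimated counts of CHAC1, 43 of CTH and 148 of SLC7A11, and at least 238 of each other member.

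In limma on log2(TPM + 0.1), on log2(TPM + 1) and on log2(TPM + 1) without a filter, in that order, calls among the 8 genes became 6, 7 and 6 (from 21) for higher at 3 against 0.2 nM. Those lower than untreated became 3 in each (from 10) at 0.01 nM, 3 in each (from 8) at 0.2 nM and 2 in each (from 8) at 3 nM. Those between adjacent times became 5, 6 and 5 lower (from 10) at 0.01 nM, 2 in each lower (from 6) at 0.2 nM, and 15, 15 and 14 higher (from 24) and 2 in each lower (from 4) at 3 nM. Untreated set 2 against set 1 gave 0 higher (from 1) and 1 lower (from 3) in each. DESeq2 gave 0 higher there, edgeR without the filter 2, and leaving out a library 0 to 1 (0 without set 1 replicate 1, set 2 replicate 2 or set 2 replicate 3). Without the filter 4 calls (from 7) were lower at 3 against 0.2 nM; relative to the untreated set of like depth 0 were lower, and 2 (from 0) at least 2-fold higher.

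Counts over all genes in the same 3 limma fits were 2738, 2780 and 2544 (from 4263) for 24 against 16 h at 0.01 nM, 921, 913 and 785 (from 1843) at 0.2 nM, and 823, 775 and 650 (from 3804) at 3 nM. They were 23816, 24113 and 21945 (from 43330) for 3 against 0.2 nM over 6 times, 16099, 16311 and 15207 (from 36290) for adjacent times at 3 nM, and 7445, 7413 and 6252 (from 12151) for the interactions.

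Signs changed on TPM (log2(TPM + 0.1), then log2(TPM + 1) with and without a filter) for CBS after 1 h at 0.2 nM (0.20, 0.19 and 0.19) and at 3 nM (0.037, 0.036 and 0.036), GCLC at 3 against 0.2 nM after 16 h (-0.091, -0.090 and -0.090), GCLM at 0.01 nM after 8 h (0.15, 0.14 and 0.14), GPX4 at 3 nM after 1 h (0.0014 in each) and for set 2 against set 1 (0.085 in each), and GSS after 1 h at 0.2 nM (0.13 in each) and at 3 nM (0.057, 0.056 and 0.056). GSS at 0.2 nM after 2 h was 0.11 on both filtered scales, and GCLC from 2 to 4 h at 3 nM was 0 on log2(TPM + 0.1). With upper-quartile scaling CBS at 3 against 0.2 nM after 24 h was -0.081 and GSS at 3 nM after 4 h -0.0056. Relative to the untreated set of like depth, the difference of 3 from 0.2 nM was 0.028, 0.086 and 0.21 for CBS after 4, 8 and 16 h, 0.79, 0.81 and 0.60 for CHAC1 after 2, 4 and 8 h, and -0.054 and -0.046 for SLC7A11 after 4 and 8 h.

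Same-numbered replicates of different groups had a median correlation of 0.017 (105 of 570 pairs over 0.1), beside -0.0092 for different numbers (116 of 1140). The share over 0.1 was larger for same numbers. These values cannot decide whether some libraries were paired, since pairing within only some groups would leave most pairs low. The main fit did not pair libraries by number. A fit with a replicate block gained 5 single-gene calls and lost 0, and moved no count by over 1.5 times.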
